A study of Mus musculus with 15 samples.

Results

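The M population, a clone of 4T1 cells, was compared with the parental 4T1 cells it came from, across all genes. All 3 M libraries were set against all 3 parental libraries, 6 of the 15 libraries of the series. The other 9 belong to the clones E1, E2 and A. They were in the same fit, so the spread behind each p-value was estimated over all 15 libraries. Of 27179 gene identifiers in the counts, 12712 had enough reads to be tested. 4T1 is an established mouse mammary carcinoma line. M cells are labelled as iRFP670 expressing: parental cells were transfected with the plasmid pNLS-iRFP670, which carries a near-infrared fluorescent protein, a single cell was isolated, and its descendants were kept in the antibiotic G418 until it was withdrawn before RNA collection. The parental cells are labelled WT and are the uncloned population. E1, E2 and A were made in the same way as M, so they share its transfection, G418 culture and single-cell origin. Every population grew in RPMI-1640 medium with serum and gentamicin, and its RNA was collected after 72 h at about 80% confluency. M is 1 clone, so what belongs to this clone and what belongs to transfection, selection or cloning cannot be told apart from M and parental libraries alone.

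A carcinoma line in culture is a mixture of cells that differ in heritable ways, and a clone carries forward the state of the 1 cell that founded it. Mammary carcinoma cells keep much of the epithelial programme, namely keratins, tight junctions and adherens junctions, while also expressing genes of motile, matrix-producing cells. The programmes described here are those of adhesion and matrix, of receptor signalling, of sterol synthesis, of protein folding in the endoplasmic reticulum and of ribosomes and mitochondria. In bulk RNA, fewer cells of a type and less RNA per cell cannot be told apart.

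The libraries held 23397818 to 36831801 counts in M and 25427438 to 31598326 in parental cells. The most abundant identifier, which has no symbol, made up 37.8% to 44.7% of all counts in M and 38.3% to 49.3% in parental cells. The 6 most abundant, which include the mitochondrial ribosomal RNA genes mt-Rnr1 and mt-Rnr2, took 61.4% to 68.3% in M and 64.8% to 72.1% in parental cells. Outside these 6, 7657054 to 14206491 counts remained in M libraries and 7096885 to 11120148 in parental ones. M replicate 2 was the deepest and M replicate 1 the shallowest of the M libraries. The labels call the replicates biological and do not say how they were separated, so p-values measure the spread between these libraries. Log2 CPM correlated at 0.953 to 0.959 within M, at 0.956 to 0.963 within parental cells, and at 0.924 to 0.942 between them. All 10 markers of luminal epithelium were tested, and 6 were higher in M and 1 lower, with a summed level of 432 to 697 CPM in M libraries and 330.0 to 372 CPM in parental libraries. Markers of other cell types were low. The 9 myoepithelial markers summed to 0.515 to 0.573 CPM in M and 1.61 to 2.37 CPM in parental cells, the 13 leukocyte markers to 0.453 to 1.23 CPM in M and 0.191 to 1.35 CPM in parental cells, and the 10 endothelial markers to 0.176 to 0.389 CPM in M and 0.0765 to 0.346 CPM in parental cells. The 10 fibroblast markers summed to 6.13 to 12.1 CPM in M and 6.97 to 7.56 CPM in parental cells, with 7 of them at 0 in all 6 libraries.

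Expression differed between M and parental cells for 1798 genes, which is 14.1% of those tested. Of these, 1000 (7.87%) were higher in M and 798 (6.28%) were lower. A gene was called at an adjusted p under 0.05 by edgeR's quasi-likelihood test with Benjamini-Hochberg adjustment over all genes tested, and every adjusted p given here is of that kind. The calls were mostly moderate in size, and the median log2 fold change was 0.87 among genes called higher and -0.81 among genes called lower, against -0.0078 over all genes tested. At least a 2-fold difference was reached by 404 called genes in the higher direction (3.18%) and 277 in the lower direction (2.18%), and an 8-fold difference by 37 and 45. Without M replicate 3 the count of calls was 1145.

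**Figure D1:**
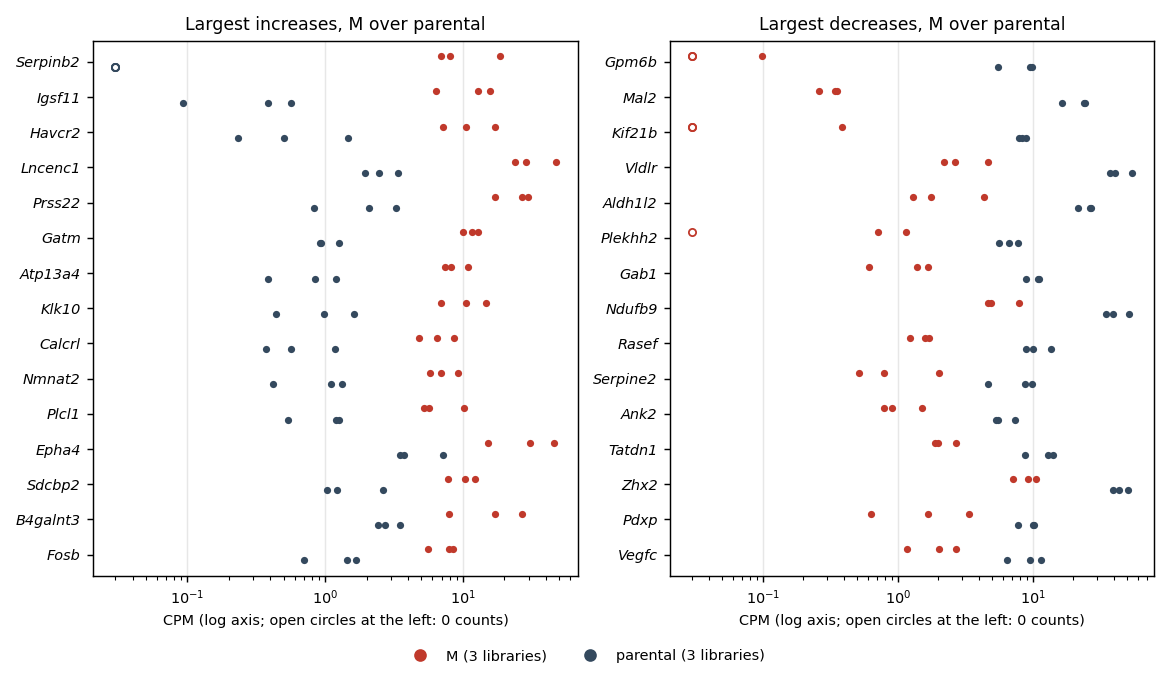
Level of the 15 genes with the largest increases (left) and decreases (right) in M, in CPM on a log axis, with 1 point per library, M in red and parental in dark blue. M points lie right of parental points for every gene on the left and left of them for every gene on the right, as the naming rule requires.

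The genes with the largest increases include secreted proteases and their inhibitors and cell-surface receptors. Serpinb2, an inhibitor of urokinase-type plasminogen activator (identifier 18788, chromosome 1), had 8.06, 18.6 and 6.93 CPM in M libraries, against 0 counts in each of the parental libraries. With a floor of 3 counts over the parental libraries, the M mean of Serpinb2 was at least 297-fold higher. Igsf11, an adhesion molecule of the immunoglobulin family (identifier 207683, chromosome 16), had 6.39, 15.8 and 12.9 CPM in M libraries, against 0.0929, 0.383 and 0.567 CPM in parental libraries. Every M library lay more than an order of magnitude above the highest parental one, and the log2 fold change was 4.76 ± 0.71 (SE, n = 3 each, edgeR adjusted p = 2.35e-08). Gatm, the first enzyme of creatine synthesis, had 12.8, 9.97 and 11.7 CPM in M libraries, against 0.928, 1.26 and 0.913 CPM in parental libraries. Its 3 replicates were close together in both populations, and the log2 fold change was 3.38 ± 0.18 (SE, edgeR adjusted p = 9.92e-11). Lncenc1, a long noncoding RNA known from embryonic stem cells, had 23.9, 28.8 and 47.0 CPM in M libraries, against 1.95, 3.41 and 2.46 CPM in parental libraries, and the groups stood well apart.

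Other proteases and receptors among the 15 largest increases were Prss22, a secreted serine protease (log2 fold change 3.52 ± 0.60), Klk10, a kallikrein (3.35 ± 0.59), Havcr2, the TIM-3 receptor best known on lymphocytes (3.85 ± 0.77), Calcrl, the receptor for adrenomedullin and calcitonin gene-related peptide (3.10 ± 0.50), and Epha4, an ephrin receptor (2.64 ± 0.57). Havcr2 had 7.23, 17.0 and 10.5 CPM in M libraries, against 0.232, 1.45 and 0.504 CPM in parental libraries. Its M replicates varied more than 2-fold but did not reach the parental range. The remaining genes were Atp13a4, a cation-transporting ATPase (3.35), Nmnat2, an enzyme of NAD synthesis (2.83), Plcl1, a phospholipase C-like protein (2.73), Sdcbp2, a syndecan-binding scaffold (2.61), B4galnt3, a glycosyltransferase (2.56), and Fosb, a subunit of the AP-1 transcription factor (2.43).

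In the other direction, several genes of parental cells were close to undetected in M. Gpm6b, a membrane glycoprotein of the proteolipid family (identifier 14758, chromosome X), had 0, 0.0980 and 0 CPM in M libraries, against 5.53, 9.45 and 9.79 CPM in parental libraries. Kif21b, a kinesin motor (identifier 16565, chromosome 1), had 0, 0 and 0.389 CPM in M libraries, against 7.94, 8.38 and 8.91 CPM in parental libraries. Mal2, a protein of vesicle transport in polarised epithelium (identifier 105853, chromosome 15), had 0.353, 0.343 and 0.259 CPM in M libraries, against 16.4, 24.0 and 24.5 CPM in parental libraries. For all 3 genes every M library lay more than an order of magnitude below every parental one, and the edgeR adjusted p was 2.94e-06, 0.0109 and 3.73e-09 in the order given.

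Vldlr, a receptor of lipoproteins and reelin, had 4.63, 2.21 and 2.65 CPM in M libraries, against 37.0, 54.6 and 40.5 CPM in parental libraries. The populations did not come near each other, with a log2 fold change of -3.80 ± 0.36 (SE, edgeR adjusted p = 9.04e-06). Aldh1l2, a mitochondrial enzyme of folate metabolism, fell by 3.34 on the log2 scale, to 4.32, 1.76 and 1.29 CPM in M libraries, against 26.8, 21.6 and 26.3 CPM in parental libraries. Gab1, a docking protein of receptor tyrosine kinases, fell by 3.02, and Vegfc, a growth factor of lymphatic vessels, by 2.21. Serpine2, a secreted inhibitor of thrombin and plasminogen activators, fell by 2.68, so that 2 inhibitors of plasminogen activators moved in opposite directions in M. The rest of the 15 were Plekhh2 (-3.23), the respiratory complex I subunit Ndufb9 (-2.85), Rasef, a Rab GTPase (-2.80), the membrane anchor protein Ank2 (-2.45), Tatdn1 (-2.42), the transcription factor Zhx2 (-2.30) and the pyridoxal phosphate phosphatase Pdxp (-2.30).

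Most genes that separated M from parental cells were not called as different between M and the other clones. Of the 1000 genes called higher in M, 611 differed from none of E1, E2 and A at an adjusted p under 0.05, and of the 798 called lower, 444 did. A p that misses the threshold does not show that the clones were alike. M itself differed from E1 in 495 genes (3.89%), from E2 in 445 (3.50%) and from A in 2256 (17.7%). The clones' own comparisons with parental cells share the 3 parental libraries, and they gave 1922 genes for E1 (15.1%), 2281 for E2 (17.9%) and 3814 for A (30.0%).

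A gene set M apart when it was called against parental cells, E1, E2 and A alike, in 1 direction and with a log2 fold change of at least 1 in size each time. This held for 1 gene that was higher (0.00787% of those tested) and 8 that were lower (0.0629%). The gene that was higher was Ngfr, the low-affinity neurotrophin receptor that also marks basal mammary cells (identifier 18053, chromosome 11), named after its values were seen because its level was under 5 CPM. Ngfr had 1.10, 4.41 and 3.37 CPM in M libraries, and 0 counts in each parental library, which puts its M mean at least 78.4-fold higher. Its mean was 0.119 CPM in E1, 0.101 in E2 and 0.110 in A, and the edgeR adjusted p was 0.00103 against parental cells and 0.00811 to 0.0311 against the other clones.

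Of the 8 lower genes, Rasef had the clearest gap. Rasef had 1.59, 1.69 and 1.23 CPM in M libraries, against 8.96, 10.1 and 13.5 CPM in parental libraries, while E1 averaged 14.9, E2 12.7 and A 6.04 CPM. No library of another population came down to the M range, and the log2 fold change of M was -2.80 against parental cells, -3.25 against E1, -3.02 against E2 and -1.96 against A, with an edgeR adjusted p of 3.02e-06 or less. Syt13, a synaptotagmin, averaged 1.72 CPM ± 0.445 in M and 6.79 CPM ± 1.88 in parental cells (SD, n = 3 each), with 5.05 in E1, 7.79 in E2 and 5.62 in A. Cd109, a surface protein that binds TGF-beta, averaged 1.70 CPM ± 0.254 in M and 5.94 CPM ± 2.55 in parental cells. Sorl1, a sorting receptor of the endosome, averaged 3.96 CPM ± 1.60 in M and 9.30 CPM ± 0.894 in parental cells. Slc39a4, a zinc importer, Slc4a4, a bicarbonate transporter, Slco5a1, an organic anion transporter family member, and the identifier 71603, which has no symbol, made up the 8 and were named after their values were seen. Which genes met the criterion depended on 1 library: there were 38 without M replicate 2 and 2 without M replicate 3.

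**Figure D2:**
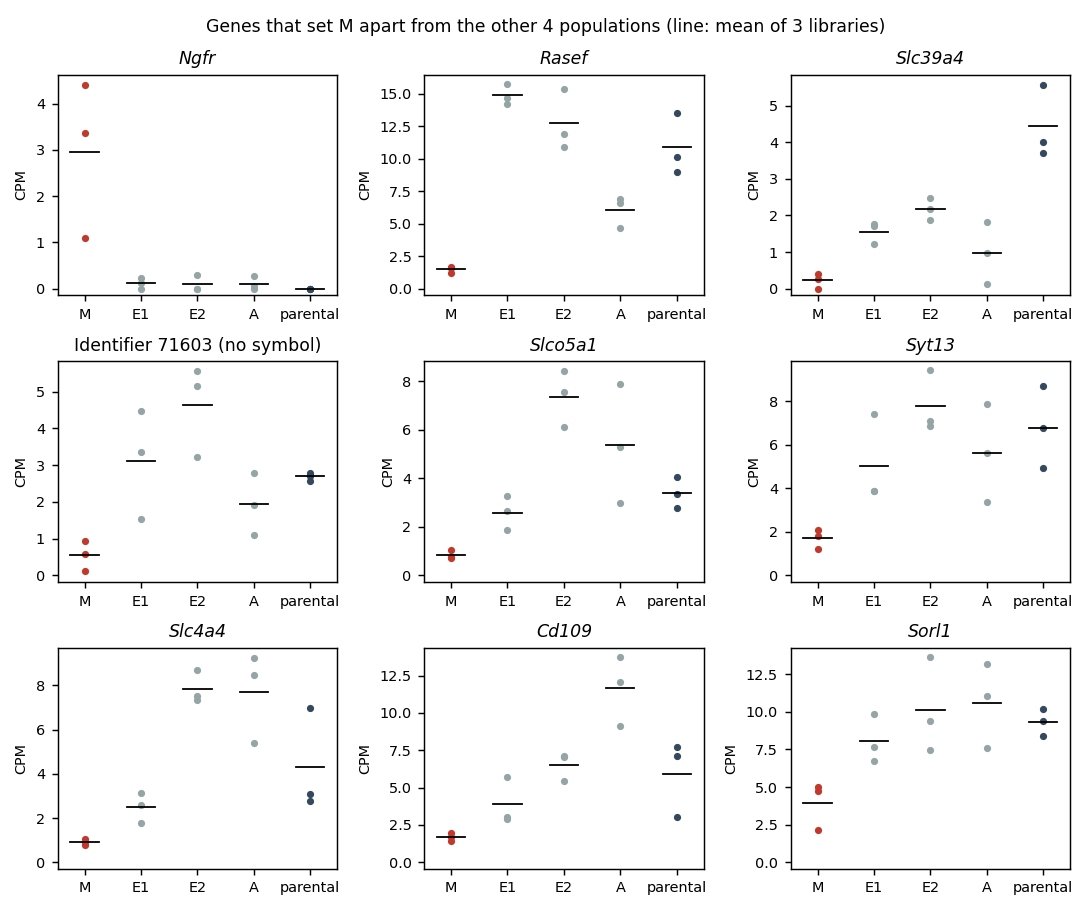
CPM of the 9 genes that set M apart, with 1 point per library, M in red at the left, E1, E2 and A in grey and parental at the right in dark blue, and the mean of 3 libraries as a line. Ngfr is at 1.10 to 4.41 CPM in M and close to 0 in the others, while the other 8 genes have their lowest mean in M.

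**Figure D3:**
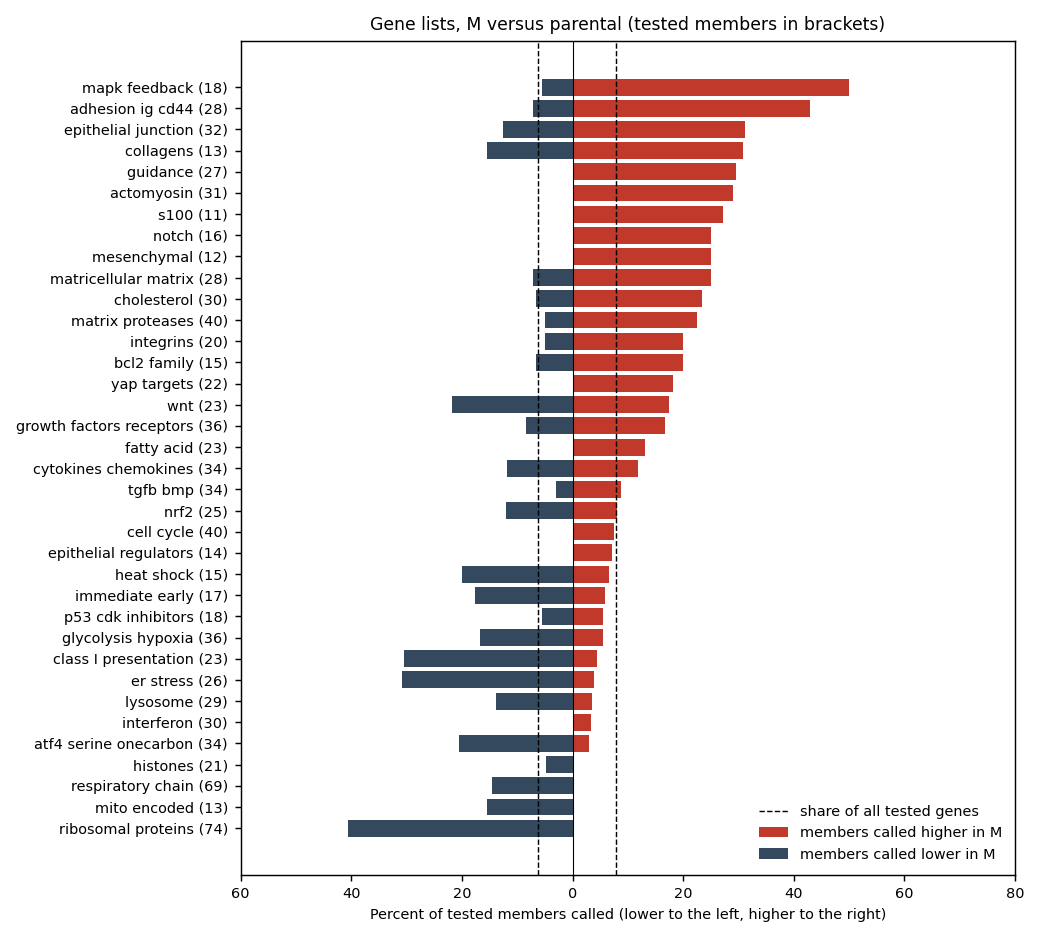
Percent of the tested members of each gene list that were called higher in M (red, to the right) or lower in M (dark blue, to the left), for lists with at least 10 tested members, given in brackets, without the cell type marker lists. Dashed lines mark the shares over all 12712 tested genes, 7.87% higher and 6.28% lower. The mapk feedback list, of genes linked to ERK signalling, and the adhesion list reach furthest to the right, and ribosomal proteins reach furthest to the left.

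Of the 32 genes of the epithelial junction list, which were all tested, 10 were called higher in M, 4 lower and 18 were not called. The share called was 43.75%, against 14.1% of all tested genes, and the median log2 fold change was 0.22. Epcam, an epithelial adhesion molecule, had 40.5, 57.6 and 41.8 CPM in M libraries, against 17.0, 17.4 and 19.3 CPM in parental libraries. Its groups did not overlap, and the log2 fold change was 1.38 ± 0.17 (SE, edgeR adjusted p = 3.70e-06). The tight junction claudins Cldn4 and Cldn9 rose as well, Cldn4 to 189 CPM ± 43.8 in M, against 80.2 CPM ± 8.23 in parental cells, and Cldn9 to 4.92 CPM ± 0.0889 in M, against 0.171 CPM ± 0.0702 in parental cells (SD, n = 3 each). Among the 6 tested keratins, which form the intermediate filaments of epithelium, 4 rose (66.7%, against 7.87% of all tested genes) and 0 fell. They were Krt7 (log2 fold change 1.51), Krt80 (1.25), Krt8 (1.08) and Krt19 (1.00). Krt8 was high in M replicate 2 (173 CPM) and lower in M replicates 1 and 3 (75.4 and 128 CPM), against 57.1, 65.0 and 56.2 CPM in parental cells.

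The rise was not uniform across the junction genes. Cdh1, which encodes E-cadherin of adherens junctions and was named after its values were seen, had 31.2, 45.8 and 32.0 CPM in M libraries, against 77.8, 53.6 and 73.2 CPM in parental libraries. All M libraries lay below all parental ones, with a log2 fold change of -0.91 ± 0.24 (SE, edgeR adjusted p = 0.00225). Mal2, described above, was the member that fell furthest. Of 14 tested regulators of the epithelial state 1 was called (7.14%, against 14.1% of all tested genes). That gene was the splicing factor Esrp1, which rose to 48.1 CPM ± 3.92 in M, against 28.4 CPM ± 1.68 in parental cells.

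The mesenchymal list had calls in 1 direction only. Of 12 tested, 3 rose and 0 were called lower, with a median log2 fold change of 0.47. The other 8 members had too few reads to be tested, and 2 of them had 0 counts in all 6 libraries. Snai2, a transcription factor that represses epithelial genes, had 3.31, 4.34 and 4.76 CPM in M libraries, against 0.186, 0 and 0.252 CPM in parental libraries. The smallest M value was more than an order of magnitude above the largest parental one (log2 fold change 4.28 ± 0.71, edgeR adjusted p = 5.22e-05). Axl, a receptor tyrosine kinase, was far more abundant, with 895, 1058 and 988 CPM in M libraries, against 478, 501 and 576 CPM in parental libraries. Fstl1, a secreted glycoprotein, rose by 1.67 on the log2 scale. Snai2 averaged 0.482 CPM in E1, 1.36 in E2 and 0.853 in A.

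Surface adhesion molecules were one of the lists with the largest share of calls. Of 28 tested members, 12 were higher and 2 lower, with a median log2 fold change of 0.56. Beside Igsf11, the tetraspanin Cd151 had 37.0, 48.1 and 43.4 CPM in M libraries, against 17.1, 18.7 and 22.2 CPM in parental libraries. Nectin2, a cell-cell adhesion molecule that also binds the poliovirus receptor family, had 28.9, 17.4 and 22.7 CPM in M libraries, against 9.01, 6.51 and 9.10 CPM in parental libraries. Neither gene's groups overlapped. Icam1, a ligand of leukocyte integrins, went the other way, with 0.0881, 0.147 and 0 CPM in M libraries, against 4.36, 3.64 and 1.39 CPM in parental libraries (edgeR adjusted p = 6.70e-05). Among 20 tested integrins 4 rose and 1 fell, and that lower call was lost without M replicate 3 or parental replicate 1. Itga7 and Itga6, which bind laminin, and Itga8 rose by 2.02, 0.66 and 1.25 on the log2 scale.

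Semaphorins and other guidance molecules, which steer growing axons and vessels, had 8 of 27 tested members called higher and 0 lower. The higher share was 29.6%, against 7.87% of all tested genes. Sema7a, a membrane-anchored semaphorin, had 8.06, 8.85 and 10.3 CPM in M libraries, against 2.46, 1.23 and 2.39 CPM in parental libraries. Slit2, the ligand of Robo receptors, had 14.5, 6.81 and 12.9 CPM in M libraries, against 2.83, 1.76 and 2.52 CPM in parental libraries. Both were more than 2-fold higher in every M library than in any parental one, with edgeR adjusted p of 2.20e-06 and 3.16e-05. Sema5a and Sema3f rose by 0.99 and 0.82 on the log2 scale.

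Matrix genes moved in both directions. Of 28 tested matrix and matricellular genes 7 were higher and 2 lower (32.1% called, against 14.1% of all tested genes). Without M replicate 2 the counts were 4 and 4. Fbln2, a basement membrane fibulin, had 221, 340 and 254 CPM in M libraries, against 113, 83.9 and 108 CPM in parental libraries, a log2 fold change of 1.42 ± 0.23 (SE, edgeR adjusted p = 9.52e-07). Thbs1, a secreted matrix glycoprotein, rose by 2.29 on the log2 scale. Among 13 tested collagens, 4 were higher and 2 lower (46.2% called). Without M replicate 2, 5 were lower, and without M replicate 3 or parental replicate 3, 1 was. Col7a1, the anchoring fibril collagen, rose to 86.9 CPM ± 8.38 in M, against 39.4 CPM ± 5.41 in parental cells (SD, n = 3 each). Col6a1, a microfibril collagen, had 0, 0 and 0.194 CPM in M libraries, against 2.60, 2.95 and 2.02 CPM in parental libraries. It was detected in 1 M library and in every parental library.

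Of 40 tested matrix proteases and their inhibitors, 9 were higher and 2 lower (27.5% called, against 14.1% of all tested genes). Without M replicate 2, 4 were lower. Adam19, a membrane metalloprotease, had 34.2, 41.1 and 40.2 CPM in M libraries, against 10.6, 12.2 and 14.4 CPM in parental libraries. The M replicates were tightly grouped well above the parental ones (log2 fold change 1.63 ± 0.15, edgeR adjusted p = 1.24e-07). Plaur, the urokinase receptor, named after its values were seen, had 33.0, 27.6 and 31.4 CPM in M libraries, against 8.82, 18.8 and 13.1 CPM in parental libraries, and the groups did not overlap (log2 fold change 1.17, edgeR adjusted p = 0.000354).

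In the Notch pathway, in which ligands on one cell bind and activate receptors on its neighbour, 4 of 16 tested genes rose and 0 fell. The ligand Dll1 had 15.5, 13.8 and 16.4 CPM in M libraries, against 1.76, 3.52 and 3.87 CPM in parental libraries. Its target Hes1, a repressor, had 10.8, 7.60 and 9.10 CPM in M libraries, against 2.74, 3.06 and 4.47 CPM in parental libraries. Both pairs of groups were well separated, with log2 fold changes of 2.28 ± 0.36 and 1.39 ± 0.26 (SE, edgeR adjusted p = 8.14e-07 and 0.000172). The ligand Jag1 rose by 0.77 on the log2 scale, and the target Hey2 had 0.0881, 0.368 and 0.518 CPM in M libraries, against 0 counts in each parental library.

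In the Wnt pathway, which acts through frizzled receptors and beta-catenin, 4 of 23 tested genes were higher and 5 lower. The share called was 39.1%, against 14.1% of all tested genes. Without M replicate 3 or parental replicate 2 the counts were 2 and 2, without M replicate 2 they were 5 and 3, and without parental replicate 3 they were 3 and 2. Wnt7a, a ligand, averaged 63.2 CPM ± 6.43 in M and 13.3 CPM ± 2.54 in parental cells (SD, n = 3 each). The separation was wide, and the log2 fold change was 2.24 ± 0.18 (SE, edgeR adjusted p = 3.03e-10). The mean of Wnt7a was 49.6 CPM in E1, 34.4 in E2 and 15.1 in A. Wnt7b rose by 0.83 on the log2 scale. Wnt10b had 0, 0.0490 and 0 CPM in M libraries, against 0.928, 1.95 and 2.14 CPM in parental libraries, and Rnf43, which removes Wnt receptors from the surface, had 0, 0.245 and 0 CPM in M libraries, against 0.464, 1.38 and 1.67 CPM in parental libraries.

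Growth factors and receptors had 6 of 36 tested members higher and 3 lower. Met, the receptor of hepatocyte growth factor, had 240, 355 and 311 CPM in M libraries, against 103, 143 and 162 CPM in parental libraries. Kitl, the ligand of the Kit receptor, had 120, 116 and 138 CPM in M libraries, against 28.6, 51.9 and 39.2 CPM in parental libraries. The lowest M library was above the highest parental one for both, with log2 fold changes of 1.15 ± 0.26 and 1.64 ± 0.26 (SE, edgeR adjusted p = 2.08e-05 and 3.44e-05). Pdgfc, a platelet-derived growth factor, fell by 1.65. In the TGF-beta and BMP list, 3 of 34 tested genes rose and 1 fell, so that 11.8% were called, against 14.1% of all tested genes. Inhba, a subunit of activin, and Fst, which binds and blocks activin, rose by 1.46 and 2.40 on the log2 scale, and the co-receptor Tgfbr3 fell by 1.45.

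A list of genes linked to ERK signalling had the largest share of higher calls among the lists with at least 10 tested members, the marker lists aside. Several of its members, though not all, are induced by ERK signalling and dampen it in turn. Of 18 tested, 9 were higher and 1 lower (55.6% called, against 14.1% of all tested genes), with a median of 0.56 on the log2 scale. Without M replicate 2, 5 were called higher. Dusp4, a phosphatase of ERK, had 65.9, 71.5 and 67.2 CPM in M libraries, against 42.2, 44.4 and 37.1 CPM in parental libraries, with no overlap (log2 fold change 0.73 ± 0.09, edgeR adjusted p = 0.000481). Spred3 and Dusp10 rose by 1.29 and 0.90 on the log2 scale, while Spred2 fell by 0.76. Of 17 tested immediate early genes 1 rose, Fosb, and 3 fell, Myc, Atf3 and Jund (23.5% called). Fosb had 8.46, 5.56 and 7.87 CPM in M libraries, against 0.696, 1.68 and 1.45 CPM in parental libraries, and its mean was 2.21 CPM in E1, 2.33 in E2 and 16.9 in A.

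Of the 40 tested cell cycle genes 3 were called higher and 0 lower, so that the share called higher, 7.5%, was close to the 7.87% over all tested genes. Ccnd1, the cyclin that partners Cdk4 and Cdk6 in the first growth phase, had 888, 885 and 703 CPM in M libraries, against 397, 385 and 424 CPM in parental libraries. It was high in all M libraries, and the log2 fold change was 1.04 ± 0.12 (SE, edgeR adjusted p = 7.69e-06). The other 2 were Ccnd2 and Rrm2, whose calls were lost without single libraries, and without M replicate 2 the counts were 2 higher and 9 lower. Among 15 tested genes of the Bcl2 family, 3 rose and 1 fell (26.7% called, against 14.1% of all tested genes). Bcl2l1 and Bcl2 rose to 45.5 CPM ± 4.78 and 63.1 CPM ± 5.96 in M, against 17.4 CPM ± 2.43 and 33.0 CPM ± 3.32 in parental cells (SD, n = 3 each). Bcl2l15 rose by 2.82 on the log2 scale. Bmf fell by 2.41, and survival of the cells was not tested.

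Sterol synthesis and uptake had 7 of 30 tested members higher and 2 lower (30.0% called, against 14.1% of all tested genes), with a median log2 fold change of 0.47. Cells make and import sterols when the membrane sensor proteins of the endoplasmic reticulum find too little, and Insig1 is part of that sensor. Insig1 had 20.5, 73.7 and 34.9 CPM in M libraries, against 6.41, 13.2 and 7.27 CPM in parental libraries. Cyp51, the demethylase of lanosterol, had 15.86, 41.49 and 23.25 CPM in M libraries, against 12.12, 13.59 and 13.04 CPM in parental libraries. M replicate 2 was the highest for both, and no M library overlapped the parental range. Dhcr7, a late reductase of cholesterol synthesis, had 8.15, 9.02 and 10.5 CPM in M libraries, against 5.38, 3.90 and 5.04 CPM in parental libraries, and in that gene M replicate 2 did not stand out. Without M replicate 2, 3 members were called higher. With no filter on low counts, 13 were. The 2 lower members, named after their values were seen, were the cholesterol exporters Abca1 and Abcg1. Abca1 had 0 counts in each M library, against 0.928, 0.153 and 0.126 CPM in parental libraries. Its parental mean was 12.7 times the M floor, and most of that mean came from parental replicate 1. Abcg1 had 0.0881, 0.0980 and 0.130 CPM in M libraries, against 1.02, 1.07 and 0.756 CPM in parental libraries. Both lay near the level of single reads in M, and without parental replicate 1 neither was called. The list held 1 lower call without M replicate 1, M replicate 3 or parental replicate 2.

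The genes of protein folding in the endoplasmic reticulum showed the opposite direction. Of 26 tested, 8 were lower in M and 1 higher (34.6% called, against 14.1% of all tested genes). The median log2 fold change was -0.13, and the calls concerned a minority of the list. Hspa5, the Hsp70 chaperone of the endoplasmic reticulum also known as BiP (identifier 14828, chromosome 2), had 268, 236 and 255 CPM in M libraries, against 1087, 923 and 943 CPM in parental libraries. The replicates agree closely and the gap was 3.89-fold (log2 fold change -1.96 ± 0.09, SE, edgeR adjusted p = 3.13e-10). Its mean was 452 CPM in E1, 355 in E2 and 220 in A. Calr and Canx, the calcium-binding lectins that fold glycoproteins, and P4hb, a disulfide isomerase, fell by 0.81, 0.57 and 0.74 on the log2 scale. Herpud1, a component of the degradation of misfolded proteins, fell by 0.94. The other members called, named after their values were seen, were Manf, Ern1 and Xbp1, which were lower, and Edem1, which was higher. Hsp90b1, the Hsp90 of the same compartment, averaged 353 CPM ± 56.3 in M and 342 CPM ± 46.7 in parental cells, with a log2 fold change of 0.05 (edgeR adjusted p = 0.898). Without M replicate 3, 5 members were called lower.

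**Figure D4:**
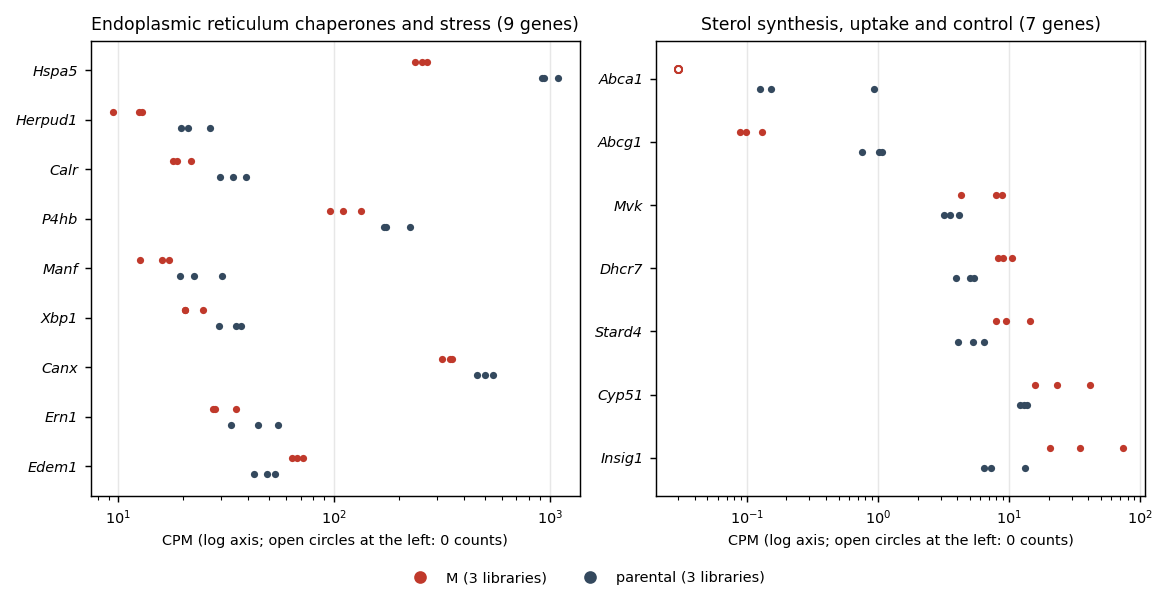
Level of the 9 called members of the endoplasmic reticulum list (left) and of 7 called members of the sterol list (right), in CPM on a log axis, with 1 point per library, M in red and parental in dark blue. The sterol members called but not drawn were higher in M. Hspa5 lies at 236 to 268 CPM in M and 923 to 1087 CPM in parental cells, and the M points of Insig1 and Cyp51 are spread towards 1 high library, M replicate 2.

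Many genes of this folding machinery carry an endoplasmic reticulum stress element in their promoter, a pair of short motifs at a fixed distance that the factors NF-Y and ATF6 are known to bind. The letters CCAAT and CCACG, with 9 bases of any kind between them, were searched on both strands in the RefSeq promoter windows, from 250 bases before to 50 bases after each start (GRCm38.p6). They were found in 16 of 12345 windows of tested genes (0.130%) and in 8 of 23 windows of the folding list (34.8%). Of those 8 genes, Hspa5, Calr and Canx were called lower in M, and Creld2, Dnajc3, Hsp90b1, Pdia6 and Syvn1 were not called, with log2 fold changes of -0.06, -0.34, 0.05, -0.25 and -0.06. The windows of the 3 genes called lower are shown because their levels and their motif can be set side by side, each 5′ to 3′ on the gene's own strand, with the fixed letters of the motif in capitals. They lie at chr2:34771840-34772139 on the plus strand for Hspa5, at chr8:84846882-84847181 on the minus strand for Calr and at chr11:50325624-50325923 on the minus strand for Canx.
Hspa5: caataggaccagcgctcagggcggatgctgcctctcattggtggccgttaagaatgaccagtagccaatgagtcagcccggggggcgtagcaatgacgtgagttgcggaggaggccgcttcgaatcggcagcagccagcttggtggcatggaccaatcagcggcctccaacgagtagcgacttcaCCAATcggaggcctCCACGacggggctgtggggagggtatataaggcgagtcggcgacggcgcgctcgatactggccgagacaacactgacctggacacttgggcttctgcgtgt
Calr: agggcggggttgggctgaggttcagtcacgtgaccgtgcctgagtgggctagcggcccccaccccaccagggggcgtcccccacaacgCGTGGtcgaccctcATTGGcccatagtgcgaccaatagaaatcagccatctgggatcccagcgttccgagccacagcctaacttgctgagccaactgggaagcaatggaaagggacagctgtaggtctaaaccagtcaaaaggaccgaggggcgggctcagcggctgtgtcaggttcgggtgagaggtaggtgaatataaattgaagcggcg
Canx: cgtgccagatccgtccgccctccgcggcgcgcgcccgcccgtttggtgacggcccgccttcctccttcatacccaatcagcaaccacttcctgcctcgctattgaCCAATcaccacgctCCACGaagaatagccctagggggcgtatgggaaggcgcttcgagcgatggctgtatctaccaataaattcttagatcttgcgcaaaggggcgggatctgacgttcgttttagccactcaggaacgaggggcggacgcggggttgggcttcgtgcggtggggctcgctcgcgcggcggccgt
The motif is read on the gene's own strand in Hspa5 and Canx and on the opposite strand in Calr. A match is a description of the letters and says nothing of binding in these cells. The same letters were in 0 of 27 windows of the sterol list.

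A mixed list of the factor ATF4, genes linked to it and enzymes of serine and one-carbon metabolism had 7 of 34 tested members lower and 1 higher. The share called was 23.5%, against 14.1% of all tested genes. Aldh1l2 and Vldlr fell furthest. Stc2, a secreted glycoprotein, fell by 1.48 and Cth, which makes cysteine, by 0.69, and 4 members were lower without M replicate 3 or parental replicate 3. Class I antigen presentation, by which cells show peptides to T cells, had 7 of 23 tested members lower and 1 higher (34.8% called). Its median log2 fold change was -0.44. Of the 7 lower members, Calr and Canx belong to the folding list as well and were counted there. Tap2, a subunit of the peptide transporter, had 3.75, 2.40 and 2.52 CPM in M libraries, against 12.2, 6.62 and 5.89 CPM in parental libraries. Psmb8, an immunoproteasome subunit, averaged 1.75 CPM ± 0.285 in M and 4.59 CPM ± 2.12 in parental cells. Parental replicate 1 was the highest for both genes, and without it 4 members were called lower. The H2 genes share near-identical stretches, which leaves their counts uncertain. Of 30 tested interferon response genes 1 was called (3.33%), Usp18, which was higher in M.

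Ribosomal proteins were the list with the largest share of lower calls among lists with at least 10 tested members. Of 74 tested, 30 were lower in M (40.5%, against 6.28% of all tested genes) and 0 higher, and the median log2 fold change was -0.59. Rpl4 had 266, 251 and 257 CPM in M libraries, against 533, 445 and 502 CPM in parental libraries. Rps24 had 87.0, 91.8 and 72.8 CPM in M libraries, against 148, 178 and 151 CPM in parental libraries. Both showed M replicates close together and below all parental ones, and Rpl7 fell by 0.77 on the log2 scale. These genes have many processed copies in the genome, which can take part of their reads, and 16 were called lower without M replicate 3 and 19 without parental replicate 1. Of 69 tested respiratory chain genes encoded in the nucleus, 10 were lower (14.5%) and 0 higher, with a median of -0.21. Without M replicate 1 or M replicate 3, 5 were lower. Cox4i1, a subunit of cytochrome oxidase, fell to 23.5 CPM ± 0.945 in M, against 43.4 CPM ± 5.64 in parental cells. Of 13 tested genes of the mitochondrial genome 2 were lower (15.4%), mt-Co1 and mt-Cytb, and 1 was without M replicate 1, M replicate 3 or parental replicate 2. The level of mt-Co1 was 834, 1097 and 847 CPM in M libraries, against 1582, 1621 and 1452 CPM in parental libraries.

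Other lists held calls in both directions or in few genes, and several lay near the shares over all tested genes, 7.87% higher and 6.28% lower. In glycolysis and hypoxia 2 of 36 tested genes were higher and 6 lower, and Car9 and Car12, a pair of membrane carbonic anhydrases, moved in opposite directions, with log2 fold changes of 1.80 ± 0.46 and -2.13 ± 0.33. Without M replicate 1, 4 were higher, and without M replicate 3 or parental replicate 3, 3 were lower. Of 31 tested actomyosin genes 9 were higher and 0 lower, led by Cnn2, an actin-binding calponin (31.2, 64.2 and 42.4 CPM in M libraries, against 19.7, 17.9 and 17.4 CPM in parental libraries), and 3 were higher without M replicate 2 and 5 without parental replicate 2. In a list of YAP pathway components and targets 4 of 22 tested genes rose (18.2%) and 0 fell. Those that rose include Ccn2 and Ankrd1 (log2 fold changes 1.22 and 0.83). Of 34 tested cytokine genes 4 were higher and 4 lower, and 2 were lower without M replicate 1, parental replicate 1 or parental replicate 3. Il1a, an inflammatory cytokine, had 4.41, 7.13 and 3.24 CPM in M libraries, against 0.0929, 0.880 and 0.126 CPM in parental libraries. Ccl2, a chemokine that attracts monocytes, had 0 counts in each M library, against 1.90, 3.90 and 6.42 CPM in parental libraries. This puts Ccl2 in M at least 128-fold below its parental mean. It averaged 0.358 CPM in E1 and 0.247 in E2, and it had 0 counts in A. In the lysosome list 4 of 29 tested genes fell and 1 rose, in the NRF2 list 3 of 25 fell and 2 rose, in heat shock 3 of 15 fell and 1 rose, and in fatty acid synthesis 3 of 23 rose. In the NRF2 list 0 were lower without M replicate 1, M replicate 3 or parental replicate 2, and 1 was higher without M replicate 2. In heat shock 1 was lower without M replicate 2 or parental replicate 2, and 0 were higher without M replicate 1, M replicate 3, parental replicate 1 or parental replicate 3. In fatty acid synthesis 1 was higher without M replicate 2, M replicate 3 or parental replicate 2, and the 1 higher lysosome gene was lost without M replicate 2, M replicate 3, parental replicate 2 or parental replicate 3. Of 18 tested p53 and cell cycle inhibitor genes Perp rose and Trp53 fell. Of 21 tested histone genes 1 was called lower, and without M replicate 2 there were 7, and when M replicate 1, M replicate 3, parental replicate 1 or parental replicate 3 was left out there were 0.

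Calls were not spread evenly along the genome. On chromosome 8, 114 of 674 tested genes were lower in M (16.9%) and 13 higher, with a median log2 fold change of -0.38. Chromosome 15 had 105 of 486 lower (21.6%), chromosome 14 had 50 of 413 (12.1%) and chromosome 11 had 116 of 1008 (11.5%). The chromosomes with the largest shares of higher calls were 16, with 71 of 393 (18.1%), 10, with 95 of 601 (15.8%), and 6, with 92 of 589 (15.6%). The median log2 fold change of chromosome 8 genes against the same 3 parental libraries was -0.34 in E1, -0.25 in E2 and -0.30 in A. On chromosome 14 it was -0.34 in M, -0.46 in E1, -0.75 in E2 and -0.30 in A.

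**Figure D5:**
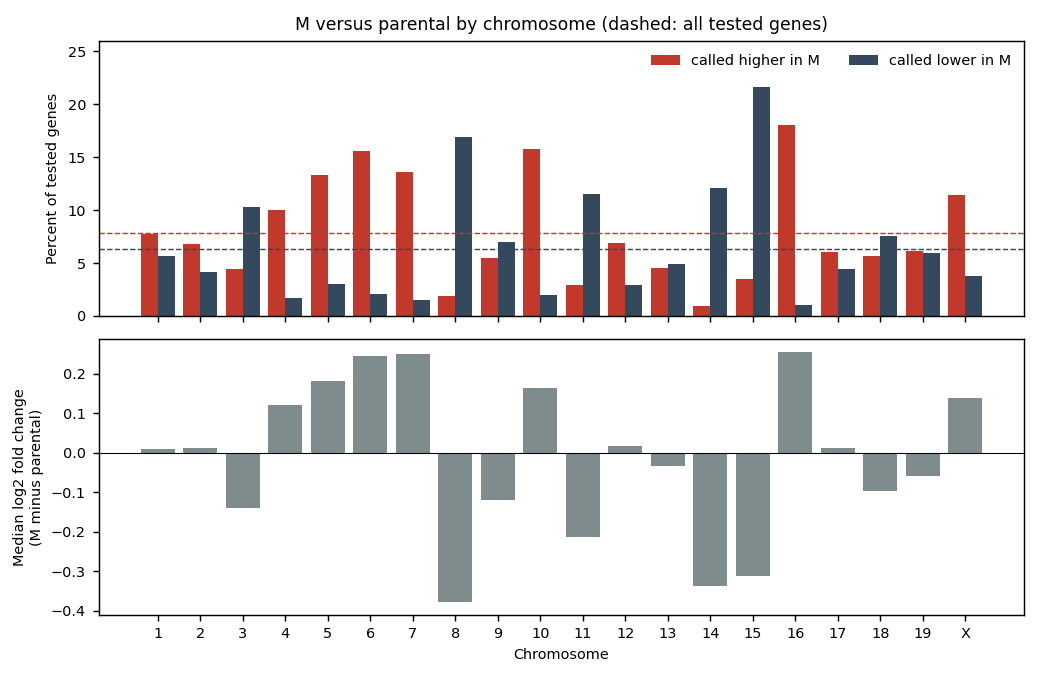
Top, percent of tested genes per chromosome called higher (red) or lower (dark blue) in M, with dashed lines for the shares over all tested genes. Bottom, median log2 fold change per chromosome, M minus parental. Chromosomes 8, 14 and 15 have medians below -0.30, and chromosomes 6, 7 and 16 have medians of 0.25 or 0.26.

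A stretch of 20 Mb held 36 of the 105 lower calls of chromosome 15. In windows of 5 Mb with at least 8 tested genes, 4 neighbouring windows, from 50 to 70 Mb, each had at least 50% of their genes called lower. The windows were picked by that share, so the counts within them describe the stretch and do not test it. Together they held 53 tested genes, of which 67.9% were called lower in M and 2 were called higher, and in 39 every M library lay below every parental one, where 29.3% of all tested genes did not overlap in either direction. The median log2 fold change was -1.29. Against the same parental libraries the median was -0.41 in E1, -0.36 in E2 and -1.33 in A. In direct tests M was lower than E1 in 25 of these genes and lower than E2 in 26, and higher in 0 of either, while against A it was lower in 5 and higher in 3. Those tests use the same M libraries by which the windows were picked. Over all tested genes M was lower than E1 in 1.46% and higher in 2.43%, lower than E2 in 1.57% and higher in 1.93%, and lower than A in 8.55% and higher in 9.20%.

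Genes of that stretch, named by their position and after their values were seen unless given above, include Derl1, which exports misfolded proteins from the endoplasmic reticulum, with 11.1, 10.3 and 9.68 CPM in M libraries, against 48.1, 49.6 and 44.6 CPM in parental libraries. Fam91a1, a Golgi transport protein, had 140, 126 and 147 CPM in M libraries, against 339, 425 and 415 CPM in parental libraries. Ndrg1, a stress-responsive gene, had 42.8, 42.4 and 49.2 CPM in M libraries, against 185, 223 and 163 CPM in parental libraries. These abundant genes were well separated between the populations, with edgeR adjusted p of 3.03e-10, 8.32e-09 and 1.47e-09. Myc, the growth-promoting transcription factor, lies in the same stretch and had 101, 92.5 and 90.6 CPM in M libraries, against 227, 157 and 195 CPM in parental libraries (log2 fold change -1.03 ± 0.16, edgeR adjusted p = 1.68e-05). Its mean was 153 CPM in E1, 130.4 in E2 and 37.6 in A. Mal2, Ndufb9, Tatdn1 and Zhx2, all among the 15 largest decreases, lie there too. The 2 exceptions were Has2, which makes hyaluronan, and Fer1l6, a ferlin, with log2 fold changes of 0.96 and 3.48.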

How the data were processed

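RNA sequencing counts of 15 libraries of 4T1 cells were used, 3 for each of the populations M, E1, E2, A and parental. The deposited values are raw counts per gene that the authors made. HISAT2, featureCounts and the builds GRCm38 and mm10 are named in the submitters' processing notes, and their versions and the strand setting of the counting are not given in the sources used here, so reads of antisense neighbours may be mixed. The deposited normalized tables were not used here.

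Of 27179 Entrez identifiers, 25275 were named from RefSeq (GRCm38.p6) and 18 from GENCODE, and 1886 had no name. Counts were analysed in R 4.3.3 with edgeR 4.0.16: filterByExpr with a minimum count of 10 and a minimum total count of 15 kept 12712 genes, TMM factors ran from 0.847 to 1.11, and a robust quasi-likelihood fit over all 15 libraries had the population as its only term. The common dispersion was 0.0651. CPM are counts scaled to the TMM-adjusted total, the prior count for fold changes was 2, and the SE of a log2 fold change came from the SD of log2 CPM. CPM are not scaled by gene length, so levels are compared between populations and not between genes. Where a population had 0 counts, its floor was set at 3 counts summed over the 3 libraries, 0.0318 CPM in M and 0.0378 CPM in parental cells. Floors cover counting error only, as the reads carry no molecular identifiers and are not independent. A fold from a floor uses the mean of the other population and leaves out its spread. No library was a copy of another. The fit was tested on simulated data.

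The comparison and the 44 gene lists were chosen with earlier results of these data known. The rule for naming took called genes whose symbol is no predicted model, whose mean reached 5 CPM in either population and whose replicates did not overlap: the 15 largest changes in each direction, up to 8 in each direction that set M apart, and, without those filters, up to 4 called members of each list by adjusted p. Named outside it, after their values were seen, were Ngfr, Slc39a4, Slc4a4, Slco5a1, identifier 71603, Cdh1, Plaur, Manf, Ern1, Xbp1, Edem1, Cyp51, Abca1, Abcg1, the members with the stress element that were not called, and the genes named for their position. Some genes that the rule names are not reported here. Alternatives were RLE factors, DESeq2 1.42.0, no or a stricter filter, M and parental libraries only, a fit without the 6 most abundant genes, a replicate block and leaving out each library.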

Additional observations from a re-analysis of the deposited data

Results flagged for a closer look

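In 7 named genes M and A were called in opposite directions against the same 3 parental libraries, and the direct test of M against A gave the difference. Serpine2, the inhibitor of plasminogen activators, differed by -3.65 on the log2 scale (M minus A, edgeR adjusted p = 3.58e-07), with log2 fold changes against parental cells of -2.68 in M and 0.97 in A. Pdgfc differed by -3.73 (edgeR adjusted p = 2.44e-09), Bmf by -3.97 (edgeR adjusted p = 7.64e-06) and Cd109 by -2.72 (edgeR adjusted p = 2.27e-06), all lower in M and higher in A than in parental cells. In the other direction, the laminin chain Lamb3 differed by 1.80 (edgeR adjusted p = 4.78e-06), the Notch ligand Jag1 by 1.48 (edgeR adjusted p = 1.11e-06) and Acsl5, which activates fatty acids, by 1.16 (edgeR adjusted p = 1.89e-05), all higher in M and lower in A. The call of Acsl5 in M against parental cells was lost under 6 alternatives.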

How the results depend on the processing

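The count of 1798 genes that differed between M and parental cells was 1813 with RLE factors, 1961 with no filter, 1868 with a minimum count of 50, 1797 without the 6 most abundant genes, 1284 with M and parental libraries only and 2217 with DESeq2. It ranged from 1145 (without M replicate 3) to 1751 when 1 library was left out, the higher genes from 687 to 1026, the lower ones from 458 (without M replicate 3) to 725, and the genes that set M apart from 2 (without M replicate 3) to 38 (without M replicate 2). The cause was not tested. Deviations of same-numbered M and parental libraries correlated at 0.0752, -0.0579 and 0.0262. In every population, though, replicate 1 had the largest share of the most abundant identifier, 44.7% in M and 49.3% in parental cells. Whether the replicate numbers mark a shared batch was not tested, and the main fit had no term for it. With the replicate block 2207 genes were called, 1208 higher and 999 lower. No gene that the rule named changed direction under the alternatives run. Of the 154 genes that the rule named, 29 lost their call under at least 1 alternative, among them Krt19, Krt80, Hey2, Rnf43, Ccnd2, Rrm2, Atf3, Jund, Cth, Psmb8, Trp53, S100a11, Slc6a8 and mt-Cytb. Of 1144 recomputed counts of list members, 997 stayed within 1.5 times their value, 54 were larger and 93 smaller. They include counts that were 0 in the main fit, such as those of the endothelial list with 0 tested members. The 997 thus does not measure how stable the nonzero counts were. The chromosome 15 count of 36, recomputed in a step added after the data were seen, ranged from 29 to 37. A count of 3 reads was worth 0.0735 to 0.132 CPM in an M library and 0.0945 to 0.139 CPM in a parental library. Calls with values near that level, such as those of Hey2 and Abca1, rest on few reads.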

Other observations

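A few small lists not described above had calls in 1 direction. Over all tested genes 7.87% were called higher and 6.28% lower. With so few tested members, a list's share rests on single genes. Of 11 tested S100 calcium-binding proteins 3 were higher in M, S100a7a, S100a10 and S100a11, with log2 fold changes of 2.66, 0.67 and 0.73. S100a11 was not called without M replicate 2, parental replicate 2 or parental replicate 3, or with M and parental libraries only. Of 4 tested genes of creatine metabolism 2 were higher, Gatm and the creatine transporter Slc6a8, which averaged 31.0 CPM ± 6.02 in M and 20.2 CPM ± 3.46 in parental cells (SD, n = 3 each). Slc6a8 was not called without M replicate 3, parental replicate 1 or parental replicate 3, or with M and parental libraries only, with edgeR adjusted p up to 0.142 over all alternatives. Of 8 tested genes of coagulation and its control 2 were higher, S100a10 and Tfpi, an inhibitor of the tissue factor pathway. S100a10, which binds annexin A2, was counted among the S100 proteins as well. Without M replicate 1 there were 5. Tfpi had 0.0881, 0.294 and 0.906 CPM in M libraries and 0 counts in each parental library, and it averaged 6.12 CPM in A.

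Outside chromosome 15, 3 of the windows of 5 Mb with at least 8 tested genes had 50% of their tested genes called higher in M: 4 of 8 on chromosome 6 from 10 to 15 Mb, 4 of 8 on chromosome 7 from 85 to 90 Mb and 5 of 10 on chromosome X from 90 to 95 Mb. The largest change in each, named after its values were seen, was that of Gpr85, an orphan receptor (log2 fold change 2.30), of Nox4, an enzyme that makes hydrogen peroxide (1.85), and of Pcyt1b, an enzyme of phosphatidylcholine synthesis (1.97). Nox4 had 6.26, 7.62 and 12.3 CPM in M libraries, against 2.14, 2.60 and 2.36 CPM in parental libraries. Pcyt1b had 29.1, 84.4 and 49.9 CPM in M libraries, against 10.5, 16.3 and 14.8 CPM in parental libraries, and M replicate 2 was the highest.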
